A study of Mus musculus with 4 samples.

Results

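Granzymes and the genes that build and guard the cytotoxic granule were followed across the cell classes of a small-intestinal lymphocyte sort. The 8 genes were Gzma, Gzmb, Gzmc, Gzmk, Prf1, Nkg7, Ctsw and Serpinb9, chosen by name out of 21027 genes shared by both deposited tables, and all 8 had a column in each table. The source was an ILC3 (group 3 innate lymphoid cell) sort of lamina propria cells of the small intestine, taken at 6 to 8 weeks of age from mice with floxed Cxxc1 alleles and a cre transgene, and single cells were read with BD Rhapsody. All samples share this genotype and no treatment is given, so every comparison here is between classes of cells, and no Cxxc1-sufficient sample was used. Loss of Cxxc1 by the cre may differ between classes and was not tested here. Class of cell and loss of Cxxc1 therefore cannot be told apart in these comparisons. There were 2 replicates of 2 libraries each. Tag 4 of the first capture gave replicate 1, and tag 2 of the second gave replicate 2, so replicate and capture cannot be told apart. The labels do not name separate animals, so the spread between these 2 replicates may be technical. The p-values measure what is left of that spread once a shift common to all classes is removed, pooled over the classes of the fit. Each gene's spread is also drawn towards that of other genes, with 6 residual and 33.3 prior degrees of freedom. A p-value can therefore be small for a gene whose replicates differ.

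Cytotoxic lymphocytes store granzymes, a family of serine proteases, in granules that are released onto a target cell. Perforin, encoded by Prf1, opens the target membrane, and the granzymes then cut proteins inside it. Granzyme A (Gzma) and granzyme K (Gzmk) cut after basic residues, granzyme B (Gzmb) cuts after aspartate and can start apoptosis, and granzyme C (Gzmc) is a rodent granzyme encoded beside Gzmb. Nkg7 encodes a granule membrane protein needed for granule release, Ctsw encodes cathepsin W, a cysteine protease of cytotoxic lymphocytes, and Serpinb9 encodes a serpin that inhibits granzyme B. In the gut, intraepithelial and lamina propria T cells are known carriers of granzymes, while ILC3s are known chiefly for interleukin-22.

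The tagged cells held 11939862 and 12141164 UMIs (unique molecular identifiers, each 1 counted molecule) in replicates 1 and 2, and 1906 and 4179 cells remained after filtering and doublet removal, at medians of 4200.0 and 2364 UMIs. The Scrublet caller took out 39 cells (2.01%) in replicate 1 but only 6 (0.143%) in replicate 2, a share too low to rely on. Doublets must be taken to remain in replicate 2, and their number was not estimated. The captures shared 7 cell indices. Cells were put into classes by UMIs of gate genes that include none of the 8 genes. Although the sort was for ILC3s, 258 of 1906 and 1724 of 4179 cells passed the T cell gate of at least 2 UMIs over Cd3d, Cd3e, Cd3g and Trac, and 455 and 233 cells passed a stromal gate. ILC classes had no UMI of those 4 T cell genes. The ILC3 classes were 64 and 137 NCR ILC3s (Ncr1, the gene of NKp46, and no Ccr6) and 33 and 126 CCR6 ILC3s (Ccr6 and no Ncr1), each with at least 1 UMI of the ILC3 gate genes, which include Il23r and Il22, and 267 and 803 ILC3s with neither transcript and at least 2 such UMIs. The T classes were 29 and 396 CD8 or γδ T cells (Cd8a, Cd8b1 or Trdc, no Cd4), 186 and 1014 CD4 T cells, and 43 and 314 other T cells with none of those transcripts. The ILC1/NK-gated class, 12 and 33 cells, had at least 2 UMIs over Ncr1, Klrb1c, Eomes and Tbx21 and none of the ILC3 gate genes. Its name was only partly borne out by markers outside the gate. Klra8, Klra4 and Itgam, which mark natural killer cells, had 0 UMIs in both replicates, as had the gate gene Eomes. Kit, an ILC3 gene, stood at 310.3 and 351 CPM (UMIs per 1000000 UMIs of the class), and the ILC1 markers Itga1 and Cxcr6 were present. The ILC1 check markers, which include the gate gene Tbx21, summed to 734 and 922 CPM there. They summed to 648 and 520 CPM in NCR ILC3s and to 1079 and 778 CPM in CD8 or γδ T cells. These markers do not set the class apart, so it is called here by its gate. The ILC1/NK-gated class also held Trbc1 at 479.6 and 493 CPM and Trbc2 at 734 and 169 CPM without any CD3 or Trac transcript. NCR ILC3s held Trbc1 at 182 and 141 CPM. The T cell markers Cd5, Cd6 and Themis had 0 UMIs in both replicates of the ILC1/NK-gated class. With Cd28 and Thy1 added, they summed to 339 and 428 CPM. That sum was 466 and 601 CPM in NCR ILC3s and 1656 and 1129 CPM in CD8 or γδ T cells. The part of the Trbc1 and Trbc2 transcripts in the results of the ILC1/NK-gated class was not tested.

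The granzyme genes lie in 2 clusters. In GENCODE vM21 on GRCm38, Gzma is at chr13:113093825-113100981 on the minus strand and Gzmk at chr13:113171608-113225908, also minus, with 70.6 kb between them. Gzmb (chr14:56258838-56262260, minus) and Gzmc (chr14:56231441-56234656, minus) are 24.2 kb apart, in a cluster that goes on with Gzmf, Gzmn, Gzmg, Gzmd and Gzme. All are protein-coding, and reads from these related genes could be split between neighbours by the authors' counting, so the level of Gzmc is uncertain to that extent. Prf1 is at chr10:61297833-61304680 (plus), Serpinb9 at chr13:33003250-33017957 (plus), Ctsw at chr19:5465043-5468507 (minus) and Nkg7 at chr7:43437073-43438249 (plus). The promoter windows of the 4 granzymes, 250 bases before to 50 after the RefSeq start on GRCm38.p6, are printed because the 4 genes did not share 1 pattern across classes. Of the 8 genes, 7 had a window in the RefSeq table and Ctsw had none. They are chr13:113100932-113101231 for Gzma, chr14:56262285-56262584 for Gzmb, chr14:56234608-56234907 for Gzmc and chr13:113180916-113181215 for Gzmk, all on the minus strand and written 5′ to 3′, with capitals for letters that match a RUNX core (TGTGGT), a T-box site (GTGTGA) or an AP-1 site (TGANTCA) on either strand.
Gzma: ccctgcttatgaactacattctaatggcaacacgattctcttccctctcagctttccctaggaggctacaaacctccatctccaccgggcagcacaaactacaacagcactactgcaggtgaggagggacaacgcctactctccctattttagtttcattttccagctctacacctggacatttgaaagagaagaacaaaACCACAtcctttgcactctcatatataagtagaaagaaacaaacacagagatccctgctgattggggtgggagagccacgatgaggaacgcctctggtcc
Gzmb: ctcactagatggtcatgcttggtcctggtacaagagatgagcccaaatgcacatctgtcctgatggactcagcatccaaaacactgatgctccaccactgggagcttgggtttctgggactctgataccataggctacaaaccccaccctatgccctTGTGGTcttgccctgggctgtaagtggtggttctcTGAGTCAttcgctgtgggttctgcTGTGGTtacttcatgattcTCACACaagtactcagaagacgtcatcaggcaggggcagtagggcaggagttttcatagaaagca
Gzmc: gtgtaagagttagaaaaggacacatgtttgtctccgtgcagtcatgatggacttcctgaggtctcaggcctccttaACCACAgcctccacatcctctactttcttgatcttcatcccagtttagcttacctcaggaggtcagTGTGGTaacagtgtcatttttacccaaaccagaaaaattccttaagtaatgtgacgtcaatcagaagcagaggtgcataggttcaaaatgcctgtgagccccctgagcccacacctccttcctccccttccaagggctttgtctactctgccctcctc
Gzmk: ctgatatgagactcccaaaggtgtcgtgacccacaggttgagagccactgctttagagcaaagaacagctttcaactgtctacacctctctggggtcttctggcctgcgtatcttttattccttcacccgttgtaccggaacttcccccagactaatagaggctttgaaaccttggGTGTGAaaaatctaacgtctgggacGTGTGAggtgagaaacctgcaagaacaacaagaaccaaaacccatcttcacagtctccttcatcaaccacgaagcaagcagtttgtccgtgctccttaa
Gzmb held 2 RUNX cores, 1 T-box site and 1 AP-1 match, Gzmc 2 RUNX cores, Gzma 1 RUNX core, and Gzmk 2 T-box sites, and no 2 matches overlapped. These letters are common, since 16.8% of 32851 promoter windows held the RUNX core, 14.5% the T-box site and 7.81% the AP-1 letters, and a match describes the letters and not a bound site.

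The makeup of the granzyme transcripts is given for each class as a description, with no test between classes. In the T cell classes Gzma and Gzmb made up most granzyme UMIs, with small shares of Gzmc and Gzmk. In NCR ILC3s the UMIs were spread over Gzma, Gzmb and Gzmc, with no Gzmk. Shares are of the summed UMIs of Gzma, Gzmb, Gzmc and Gzmk, with exact binomial 95% intervals that cover counting error only. They compare counts of molecules from the 3' ends of transcripts, which do not scale with gene length, although capture may differ between genes.

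CD8 or γδ T cells had 49.8% (47.0 to 52.6) and 58.7% (57.9 to 59.5) Gzma, 42.5% and 38.8% Gzmb, 6.46% and 1.59% Gzmc, and 1.20% and 0.915% Gzmk, over 1254 and 15519 UMIs in replicates 1 and 2. CD4 T cells had 46.6% and 54.8% Gzma, 49.9% and 41.5% Gzmb, 3.21% and 3.54% Gzmk, and only 0.278% and 0.178% Gzmc, which was 9 and 10 UMIs. Gzma and Gzmb therefore changed places as the leading granzyme of CD4 T cells between the replicates. In other T cells Gzma was 46.0% and 53.9% and Gzmc 1.92% and 4.56%. NCR ILC3s had 44.7% (40.6 to 48.9) and 42.5% Gzma, 25.3% and 33.8% Gzmb, and 30.0% (26.3 to 33.9) and 23.7% Gzmc, over 570 and 438 UMIs. In NCR ILC3s Gzma had the largest share in both replicates, and the order of Gzmb and Gzmc differed between them. Single cells weighed heavily here too, since 1 NCR ILC3 held 31.0% of the Gzma UMIs in replicate 1 and 21.5% in replicate 2, and 1 held 33.3% and 39.2% of the Gzmb UMIs. Without the cell richest in granzyme UMIs, an alternative chosen after seeing the data, Gzma was 43.2% and 43.6%, Gzmb 28.5% and 26.9%, and Gzmc 28.3% and 29.6%. ILC3s with neither Ncr1 nor Ccr6 had 39.4% and 15.5% Gzma, 32.1% and 44.0% Gzmb, and 28.3% and 40.4% Gzmc. The replicates of the ILC1/NK-gated class went apart, with 78.4% and 29.6% Gzma and 7.66% and 42.6% Gzmc over 222 and 169 UMIs. In replicate 1 a single cell held 33.3% of its Gzma and 80.6% of its Gzmb UMIs, so no leading granzyme is given for that class. CCR6 ILC3s had only 29 and 31 granzyme UMIs in 33 and 126 cells, too few to rank. Without cells that carry Trbc1, Trbc2, Trdc, Cd5 or Cd6, an alternative chosen after seeing the data, 24 and 70 NCR ILC3s were left with 37.4% and 40.2% Gzma and 32.4% and 18.8% Gzmc, and Gzmb (41.0%) then stood level with Gzma in replicate 2.

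**Figure D1:**
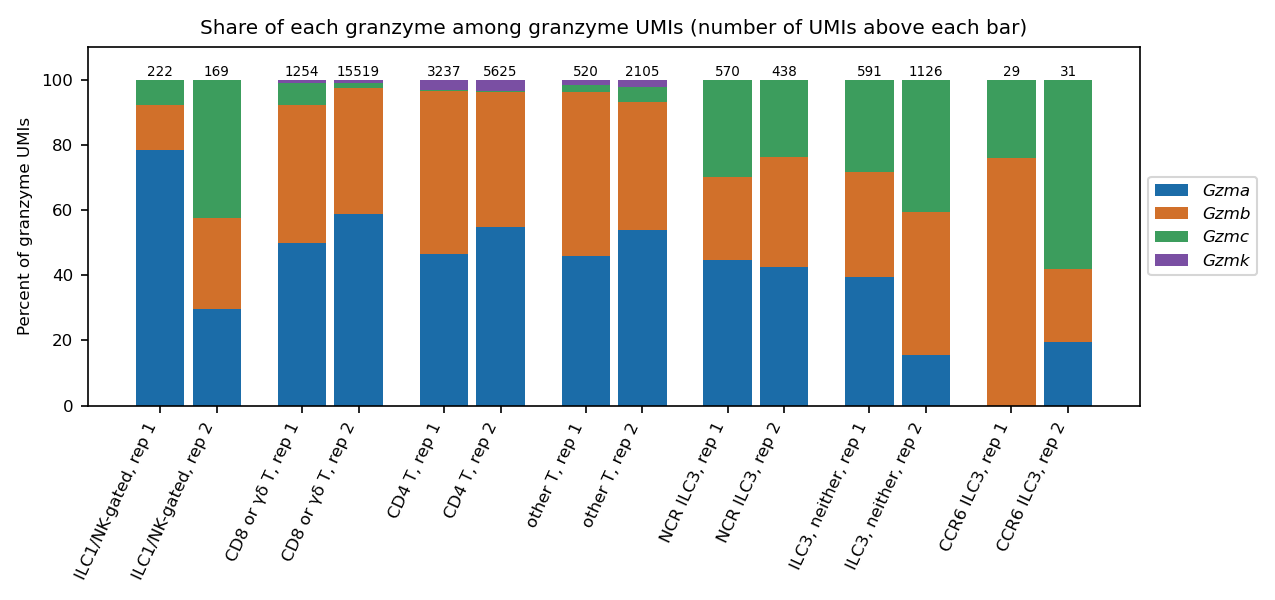
Percent of granzyme UMIs that were Gzma, Gzmb, Gzmc or Gzmk (stacked, y axis) in each gated class and replicate (x axis), with the number of UMIs above each bar. Green Gzmc makes up 30.0% and 23.7% in NCR ILC3s and 0.278% and 0.178% in CD4 T cells, and purple Gzmk appears in T cell classes, with 1 and 2 UMIs in ILC3s with neither gate gene. Bars over 29 and 31 UMIs (CCR6 ILC3) are too thin to rank.

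Gzma was highest in CD8 or γδ T cells, at 6809 CPM in replicate 1 and 9730.4 CPM in replicate 2. The ILC1/NK-gated class had 4909 and 649 CPM, CD4 T cells 2583 and 1319 CPM, other T cells 1974 and 1834 CPM, and NCR ILC3s 1081 and 460.3 CPM. ILC3s with neither gate gene had 246 and 76.2 CPM, and CCR6 ILC3s 0 and 13.1 CPM (6 UMIs). The replicates of CD8 or γδ T cells lay above those of every other lymphocyte class in the fit, and CD4 T, other T and ILC1/NK-gated cells overlapped. For comparison, classes that should lack the gene had 25.8 CPM (plasma cells, 55 cells in replicate 1) and 0 and 66.0 CPM (myeloid cells), so the Gzma of CCR6 ILC3s lay within the range of that background.

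Gzmb had 5806 and 6434 CPM in CD8 or γδ T cells, the highest level of any lymphocyte class. CD4 T cells had 2768 and 999 CPM and other T cells 2164 and 1331 CPM, which overlap. The innate classes were lower, with 875 and 610.2 CPM in ILC1/NK-gated cells, 610.3 and 366 CPM in NCR ILC3s, 201 and 217 CPM in ILC3s with neither gate gene, and 144 and 15.2 CPM in CCR6 ILC3s. In CCR6 ILC3s of replicate 1, a single cell held 72.7% of the 22 Gzmb UMIs.

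Gzmc followed another order. The ILC1/NK-gated class had 479.6 and 935 CPM, CD8 or γδ T cells 882 and 264 CPM, and NCR ILC3s 725 and 257 CPM, and these 3 ranges overlap. ILC3s with neither gate gene had 177 and 199 CPM, other T cells 82.6 and 155 CPM, CCR6 ILC3s 45.7 and 39.2 CPM, and CD4 T cells 15.4 and 4.28 CPM. CD4 T cells were thus high for Gzma and Gzmb and lowest of the 7 classes for Gzmc. Gzmk was found in T cells, at 163 and 152 CPM in CD8 or γδ T cells, 178 and 85.2 CPM in CD4 T cells, and 74.3 and 80.8 CPM in other T cells. It had 0 UMIs in NCR ILC3s, CCR6 ILC3s and the ILC1/NK-gated class of both replicates, and 1 and 2 UMIs in ILC3s with neither gate gene. In NCR ILC3s, 3 counts, the limit that a count of 0 allows, are 12.7 and 7.42 CPM.

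**Figure D2:**
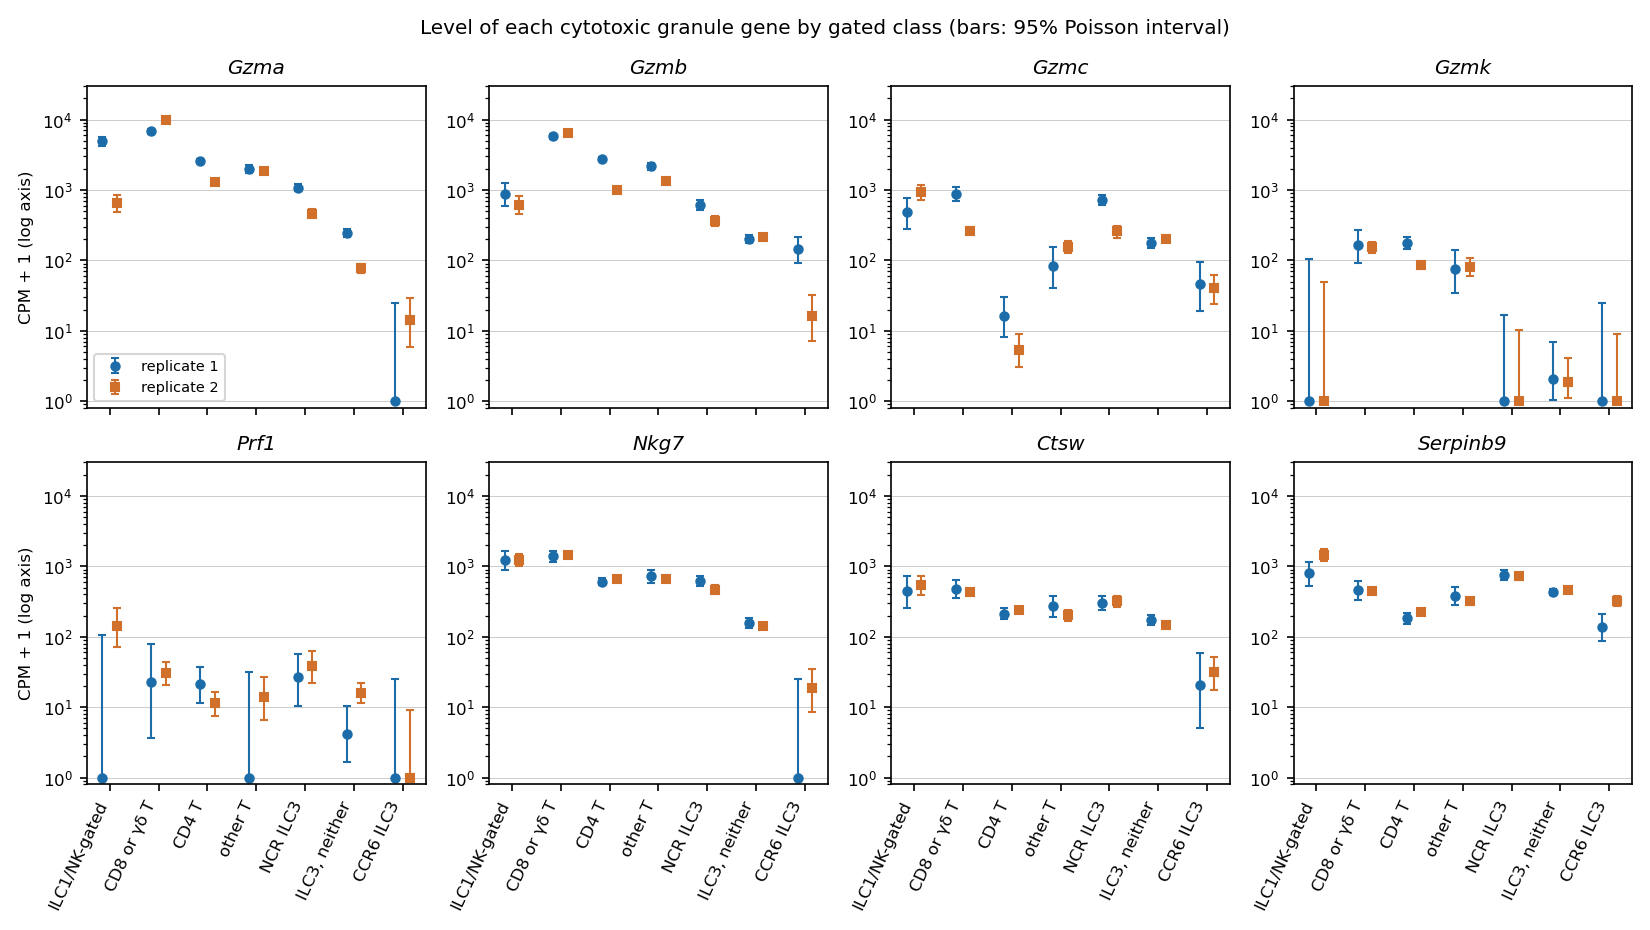
CPM + 1 (log axis) of each of the 8 genes by gated class, with replicate 1 as circles and replicate 2 as squares. Bars are exact 95% Poisson intervals for counting error. Gzma and Gzmb peak in CD8 or γδ T cells, Gzmc is lowest in CD4 T cells, Gzmk is at 0 in 3 innate classes, and CCR6 ILC3s are lowest for Gzma, Gzmb, Nkg7 and Ctsw.

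Perforin transcripts were scarce throughout. Prf1 had 25.4 and 37.1 CPM in NCR ILC3s (6 and 15 UMIs), 21.8 and 29.9 CPM in CD8 or γδ T cells (2 and 28 UMIs), 20.6 and 10.3 CPM in CD4 T cells, 3.17 and 14.9 CPM in ILC3s with neither gate gene, and 0 UMIs in CCR6 ILC3s. The ILC1/NK-gated class had 0 and 143 CPM, or 0 and 11 UMIs, so its level rests on replicate 2. Plasma cells of replicate 1 had 8.59 CPM.

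Nkg7, the gene of the granule membrane protein, had 1384 and 1460.4 CPM in CD8 or γδ T cells, 1213 and 1233 CPM in ILC1/NK-gated cells, 606 and 663 CPM in CD4 T cells, 615 and 465 CPM in NCR ILC3s, 154 and 142 CPM in ILC3s with neither gate gene, and 0 and 17.4 CPM in CCR6 ILC3s. The first 2 classes stood above the rest without overlap. Ctsw had 451 and 545 CPM in ILC1/NK-gated cells, 479 and 424 CPM in CD8 or γδ T cells, 301 and 319 CPM in NCR ILC3s, 211 and 242 CPM in CD4 T cells, 173 and 148 CPM in ILC3s with neither gate gene, and 19.6 and 30.5 CPM in CCR6 ILC3s. Serpinb9, the granzyme B inhibitor, stood higher in NCR ILC3s than in any T cell class of the fit, without overlap. It had 790.0 and 1441 CPM in ILC1/NK-gated cells, 754 and 723 CPM in NCR ILC3s, 458 and 441 CPM in CD8 or γδ T cells, 430.3 and 459.6 CPM in ILC3s with neither gate gene, 137 and 324 CPM in CCR6 ILC3s, and 182 and 222 CPM in CD4 T cells. It is not limited to lymphocytes, with 454 and 108 CPM in myeloid cells.

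Classes were compared by edgeR's quasi-likelihood test on UMI sums per class and replicate, with Benjamini-Hochberg adjustment over 7392 genes and a threshold of 0.05, and differences are given as fitted log2 ratios. NCR ILC3s were higher than CCR6 ILC3s for 7 of the 8 genes, where 3.71% of all genes tested were called (1.8% higher and 1.91% lower), and Gzmk had no UMI in either class. The median log2 ratio of the 7 genes with a fold, Prf1 at its bound, was 3.34, beside 0.01 for all genes. Gzma averaged 771 ± 439 CPM in NCR ILC3s and 6.53 ± 9.24 CPM in CCR6 ILC3s (SD, n = 2 each), a fitted log2 ratio of 5.99 (SE 0.64, adjusted p = 8.1e-09). Nkg7 had a fitted log2 ratio of 5.34 (SE 0.35), Ctsw of 3.48 (SE 0.32), Gzmc of 3.34 (SE 0.45), Gzmb of 3.10 (SE 0.40) and Serpinb9 of 1.56 (SE 0.23). Replicate 1 and replicate 2 alone gave log2(CPM + 2) differences of 2.07 and 4.42 for Gzmb and 2.44 and 1.15 for Serpinb9. They gave 9.08 and 4.94 for Gzma and 8.27 and 4.59 for Nkg7. CCR6 ILC3s had 0 CPM of both genes in replicate 1. Their Nkg7, at 17.4 CPM in replicate 2, lay below the 69.5 CPM of stromal cells. The sizes of the Gzma and Nkg7 ratios thus rest on a reference near 0. Prf1, at 0 UMIs in CCR6 ILC3s and 21 UMIs in NCR ILC3s, was at least 6.70-fold higher in NCR ILC3s, with the limit of 3 counts taken over the class. The Prf1 call (adjusted p = 0.0098) was lost with DESeq2 (adjusted p = 0.060), without the replicate block (adjusted p = 0.064) and with non-lymphocyte gates by share of UMIs, chosen after seeing the data (adjusted p = 0.109).

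Against ILC3s with neither Ncr1 nor Ccr6, NCR ILC3s were higher for 5 of the 8 genes, beside 0.703% of all genes tested (0.379% higher and 0.325% lower), with a median log2 ratio of 1.18 over the 7 genes with a fold and -0.02 over all genes. Gzma had a fitted log2 ratio of 2.29 (SE 0.35, adjusted p = 7.2e-05), Nkg7 of 1.82 (SE 0.19, adjusted p = 4.9e-08), Gzmc of 1.18 (SE 0.30, adjusted p = 0.046), Gzmb of 1.09 (SE 0.27, adjusted p = 0.038) and Ctsw of 0.94 (SE 0.20, adjusted p = 0.0069). Serpinb9 at 0.69 (SE 0.20, adjusted p = 0.105) and Prf1 at 1.62 (SE 0.61, adjusted p = 0.446) did not pass. For Gzmc, replicate 1 and replicate 2 alone gave log2 ratios of 2.02 and 0.37. The count fell to 2 with DESeq2 and to 1, Nkg7, without the replicate block, where Gzma had adjusted p = 0.162, and Gzmb lost its call without the cell richest in granzyme UMIs in each class, chosen after seeing the data (adjusted p = 0.210).

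The ILC1/NK-gated class was higher than NCR ILC3s for 2 of the 8 genes, beside 0.852% of all genes (0.338% higher and 0.514% lower), with a median log2 ratio of 0.74 over the 7 genes with a fold. Nkg7 had 1223 ± 14.4 CPM in the ILC1/NK-gated class and 539.9 ± 106 CPM in NCR ILC3s (SD, n = 2 each), a fitted log2 ratio of 1.09 (SE 0.22, adjusted p = 0.0042), and Gzma had one of 1.49 (SE 0.36, adjusted p = 0.027). Gzmc at 0.74 (SE 0.37), Gzmb at 0.52 (SE 0.34), Ctsw at 0.62 (SE 0.26) and Serpinb9 at 0.55 (SE 0.23) did not pass. The median log2 fold change of all genes was -0.20 in this contrast. For Gzma the single replicates gave log2 ratios of 2.18 and 0.49, and for Gzmc -0.59 and 1.85, so the direction of Gzmc differed between them. Without the replicate block, and with all gated classes in the fit, edgeR called 0 of the 8 genes, with 3 and 2 at an unadjusted p under 0.05, and DESeq2 called 1.

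CD8 or γδ T cells were higher than CD4 T cells for 6 of the 8 genes, beside 2.62% of all genes (1.3% higher and 1.33% lower), with a median log2 ratio of 1.12. The largest of the 8 was that of Gzmc, a fitted log2 ratio of 5.87 (SE 0.46, adjusted p = 1.4e-12), with 573 ± 437 CPM in CD8 or γδ T cells and 9.85 ± 7.88 CPM in CD4 T cells (SD, n = 2 each). It rests on few cells, since 5 of 29 and 19 of 396 CD8 or γδ T cells had a Gzmc UMI. A single cell held 43.2% of these UMIs in replicate 1 and 17.8% in replicate 2. In CD4 T cells, 5 of 186 and 9 of 1014 cells had a Gzmc UMI. Gzma had a fitted log2 ratio of 2.31 (SE 0.32, adjusted p = 2.5e-06) and Gzmb of 1.87 (SE 0.25, adjusted p = 1.3e-06). Nkg7 had one of 1.15 (SE 0.18), Serpinb9 of 1.08 (SE 0.22) and Ctsw of 0.93 (SE 0.19). Gzmk at 0.48 (SE 0.27, adjusted p = 0.634) and Prf1 at 0.98 (SE 0.60, adjusted p = 0.711) did not pass, and replicate 1 alone had Gzmk slightly lower in CD8 or γδ T cells. The single replicates gave log2 ratios of 1.40 and 2.88 for Gzma and of 1.07 and 2.69 for Gzmb. The Gzma call was lost with DESeq2 (adjusted p = 0.306) and without the replicate block (adjusted p = 0.059). The Serpinb9 call was lost under 4 alternatives, at adjusted p between 0.061 and 0.125, and the Ctsw call after thinning to 1000 UMIs with new gates (adjusted p = 0.151).

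CD8 or γδ T cells were higher than NCR ILC3s for 4 of the 8 genes and lower for 1, beside 15.1% of all genes called (6.17% higher and 8.89% lower), with a median log2 ratio of 1.02, Gzmk at its bound. Gzmb had a fitted log2 ratio of 3.81 (SE 0.28, adjusted p = 1.6e-13), Gzma of 3.75 (SE 0.35, adjusted p = 6.4e-11) and Nkg7 of 1.48 (SE 0.19, adjusted p = 1.5e-07). Gzmk, with 157 UMIs against 0, was at least 32.6-fold higher in CD8 or γδ T cells, with the limit of 3 counts over the class. Serpinb9 was lower, at -0.71 (SE 0.22, adjusted p = 0.020), a call lost under 7 alternatives, among them DESeq2 (adjusted p = 0.145) and no replicate block (adjusted p = 0.179). Gzmc had a fitted log2 ratio of 0.05 (SE 0.32, adjusted p = 0.947), Ctsw of 0.56 (SE 0.21, adjusted p = 0.060) and Prf1 of -0.27 (SE 0.63). In cells thinned to 1000 UMIs and gated again the Gzmc difference was -2.14 (SE 0.41, adjusted p = 1.1e-05), lower in CD8 or γδ T cells. The order of these classes for Gzmc was therefore not stable. That alternative changed depth and gates together, and only 5 of 29 and 19 of 396 CD8 or γδ T cells had a Gzmc UMI. The reason for the reversal was not tested.

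Set against CD8 or γδ T cells, the ILC1/NK-gated class was lower for 3 genes and higher for 1, beside 2.87% of all genes (1.64% higher and 1.23% lower), with medians of -0.16, Gzmk at its bound, over the 8 genes and -0.20 over all genes. Gzmb had a fitted log2 ratio of -3.29 (SE 0.31, adjusted p = 7.7e-10) and Gzma of -2.26 (SE 0.35, adjusted p = 3.7e-05). Gzmk, at 0 UMIs in ILC1/NK-gated cells and 157 UMIs in CD8 or γδ T cells, was at least 5.73-fold higher in CD8 or γδ T cells, with 3 counts over the class as the limit. Serpinb9 was higher in ILC1/NK-gated cells, at 1.26 (SE 0.25, adjusted p = 0.0012). Gzmc at 0.69 (SE 0.38), Nkg7 at -0.38 (SE 0.21), Ctsw at 0.06 (SE 0.26) and Prf1 at 1.66 (SE 0.78) did not pass. The single replicates gave Gzma log2 ratios of -0.47 and -3.90, and the calls of Gzma (adjusted p = 0.108) and Serpinb9 (adjusted p = 0.061) were lost without the replicate block, Gzma also with DESeq2 (adjusted p = 0.195) and Serpinb9 also with all gated classes in the fit (adjusted p = 0.063).

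**Figure D3:**
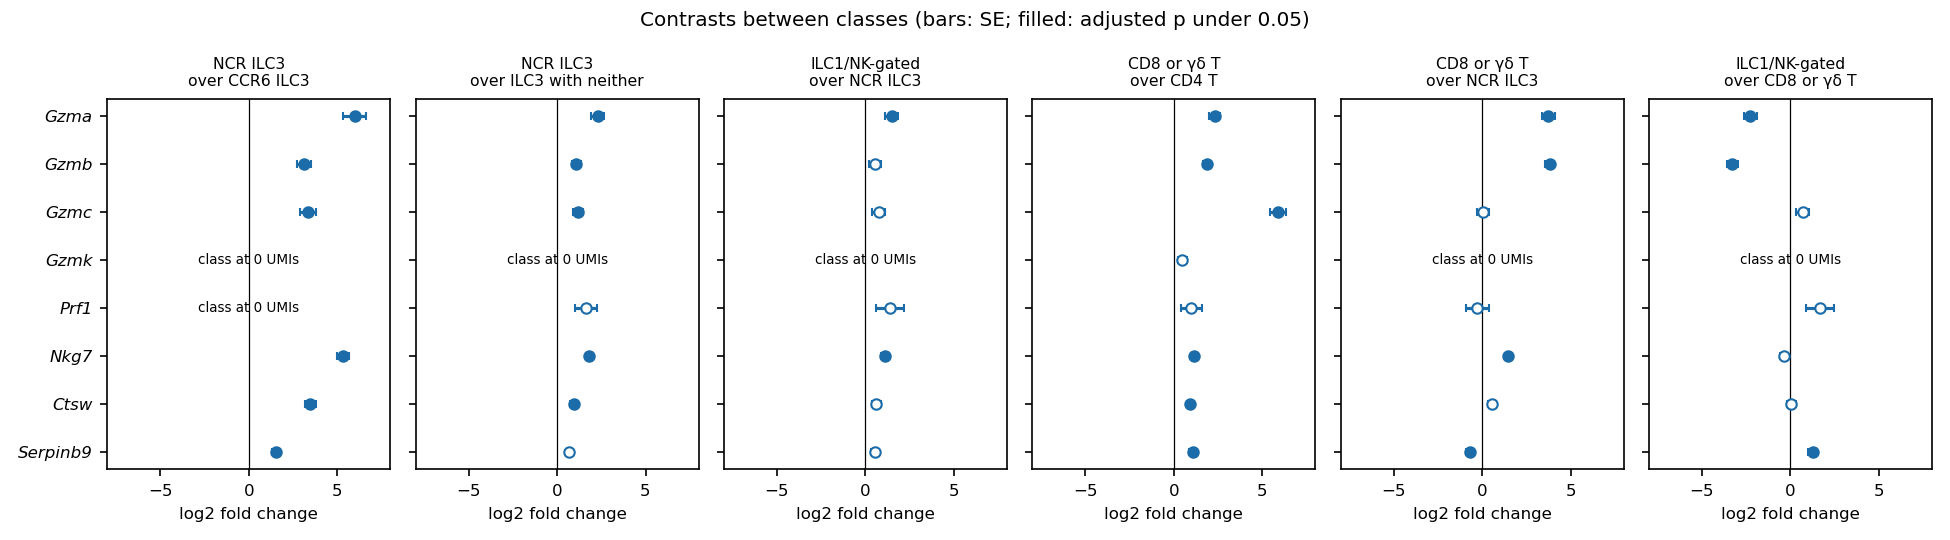
Log2 fold change (x axis, first-named class over the second) of each gene in the 6 contrasts, with standard errors as bars. Filled points have an adjusted p under 0.05 and open points do not, and no point is drawn where a class had 0 UMIs. Every filled point of the panels with NCR ILC3s first lies right of 0, while Gzma and Gzmb lie left of 0 for ILC1/NK-gated over CD8 or γδ T cells.

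The CD8 or γδ T class was not uniform. Cells with Trdc, the δ chain constant region, and no CD8 transcript (22 and 195 cells) had Gzmc at 1119 and 455 CPM, while CD8 cells without Trdc (7 and 111 cells) had 1 UMI of Gzmc in each replicate, or 49.2 and 3.81 CPM. Gzmk ran the other way, with 139.9 and 52.6 CPM in the Trdc cells and 246 and 358 CPM in the CD8 cells. Gzma was close in both, at 6910.3 and 7376 CPM in Trdc cells and 6451 and 7040.2 CPM in CD8 cells. Gzmb was close only in replicate 2, with 6994 and 5423 CPM in Trdc cells and 1625 and 5309 CPM in CD8 cells. In replicate 2, 90 cells with both CD8 and Trdc transcripts had the highest levels, 17086 CPM of Gzma and 9557 CPM of Gzmb. Replicate 1 had no cell of that kind. Of the CD8-positive cells in replicate 2, 82 with Cd8b1, with or without Cd8a, had 5355 CPM of Gzma, and 119 with Cd8a and no Cd8b1 had 16308 CPM. This split and the split by Trdc divide the same CD8-positive cells, so their groups high in Gzma overlap and are not separate results. Cd8a without Cd8b1 is the transcript pattern of CD8αα cells, which are common in the gut epithelium. The subclasses were too small in replicate 1 for a test, and Trdc cells also held Trac (224 and 357 CPM against 689 and 1237 CPM in CD8 cells), so the γδ label rests on Trdc alone.

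CD4 T cells differed by whether a cell had a UMI of Ifng, the interferon-γ gene of type 1 helper cells. Those with Ifng (65 and 399 cells) had Gzma at 3699.7 and 1938 CPM, and those without (121 and 615 cells) at 1878 and 911 CPM. Gzmb stood at 3828 and 1271 CPM with Ifng and at 2099 and 820 CPM without it. Gzmk had 195 and 113 CPM with Ifng and 168 and 66.7 CPM without it. Median depth was 2825 and 2164 UMIs in cells with Ifng and 2646 and 2040.0 UMIs in cells without. These splits were not tested, and Foxp3, the regulatory T cell factor, was found in 1 and 2 CD4 T cells, too few to split by.

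Gzma and Gzmb were found together in 17 of 29 and 214 of 396 CD8 or γδ T cells, in 45.7% and 19.4% of CD4 T cells, and in 8 of 64 and 8 of 137 NCR ILC3s. Among CD8 or γδ T cells with Gzma, 94.4% and 87.0% also had Gzmb, while 72.7% and 47.1% of NCR ILC3s with Gzma did. A Gzma UMI was found in 17.2% and 12.4% of NCR ILC3s, a Gzmc UMI in 28.1% and 17.5%, and an Nkg7 UMI in 73.4% and 59.1%. Before thinning, plasma cells of replicate 1 had a Gzma UMI in 16.4% and myeloid cells in 0% and 9.09%, at greater depth, so the unthinned Gzma share of NCR ILC3s cannot be set apart from background by itself. The richest 7 of 64 and 14 of 137 NCR ILC3s held 94.9% and 98.4% of the Gzma UMIs but 37.2% and 37.8% of the Nkg7 UMIs. In CD8 or γδ T cells the richest 3 of 29 and 40 of 396 cells held 37.6% and 50.7% of Gzma. With every cell thinned to 1000 UMIs, Gzma was found in 58.6% and 58.2% of CD8 or γδ T cells, 46.8% and 28.8% of CD4 T cells, and 14.1% and 9.56% of NCR ILC3s, after 0 and 20, 0 and 27, and 0 and 1 shallower cells were left out. Thinned plasma cells of replicate 1 had Gzma in 3.64% and thinned myeloid cells in 0% and 3.33%, with median depths before thinning of 6167 UMIs for plasma cells and 6148 and 4865 UMIs for myeloid cells, beside 3338 and 2780.0 UMIs for NCR ILC3s. Thinned stromal cells, a larger class, had Gzma in 2.42% of 455 and 2.24% of 223 cells. ILC3s with neither gate gene, at 4.12% and 3.22%, were somewhat above the stromal shares, with overlapping 95% counting intervals. In CPM they stood at 246 and 76.2, beside 44.2 and 68.7 in stromal cells, and 1 cell held 39.9% of their Gzma UMIs in replicate 1. CCR6 ILC3s, at 0% and 1.61%, were at or below these background shares.

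**Figure D4:**
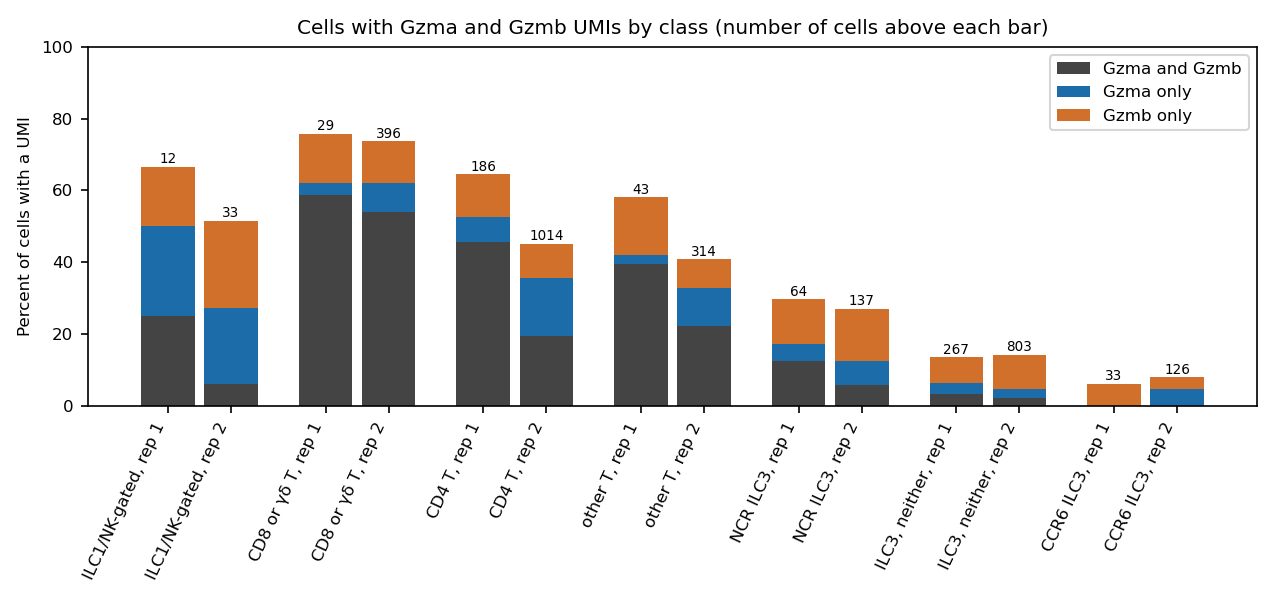
Percent of cells (y axis) with UMIs of both Gzma and Gzmb, of Gzma only or of Gzmb only in each class and replicate, with the number of cells above each bar. Cells with both number 17 of 29 and 214 of 396 in CD8 or γδ T cells and 8 of 64 and 8 of 137 in NCR ILC3s. Shares are not thinned and move with depth.

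Other genes of the pathway came from a list of 29. Of these, 27 had columns, Gzmg and Gzmn were not analysed here, and 21 passed the low-count filter. NCR ILC3s were higher than CCR6 ILC3s for 5 of the 21 and lower for 2, beside 3.71% of all genes called, with a median log2 fold change of 0.37 over the list and 0.01 over all genes. Il12rb2, a chain of the interleukin-12 receptor, had a fitted log2 ratio of 3.57 (SE 0.45), and the serpin genes Serpinb6a and Serpinb6b had 2.64 (SE 0.64) and 1.24 (SE 0.21). Tbx21, the gene of T-bet, had 2.00 (SE 0.49), and Fasl, a death ligand, was also called with 0 UMIs in CCR6 ILC3s. Lamp1, a lysosome membrane gene, was lower at -0.92 (SE 0.21), as was the transcription factor gene Zeb2 at -3.15 (SE 0.82). Against ILC3s with neither gate gene, where 0.703% of all genes were called, Fasl (3.57, SE 0.82) and Serpinb6b (0.73, SE 0.18) were higher.

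CD8 or γδ T cells were higher than CD4 T cells for 2 of the 21 pathway genes and lower for 2, beside 2.62% of all genes. Cst7, which encodes cystatin F, an inhibitor of granule cathepsins, had 98.0 and 248 CPM in CD8 or γδ T cells and 60.0 and 63.3 CPM in CD4 T cells (log2 fold change 1.67, SE 0.30). Serpinb6b was higher (0.91, SE 0.20), and Il12rb2 (-1.13, SE 0.25) and Bhlhe40, a transcription factor gene (-0.80, SE 0.17), were lower. Against NCR ILC3s, CD8 or γδ T cells were higher for 5 of the 21, beside 15.1% of all genes called in either direction, namely Cst7 (3.45, SE 0.45), Zeb2 (3.76, SE 0.72), Fasl (2.07, SE 0.50), the death ligand gene Tnfsf10 (1.71, SE 0.52) and Ctsc (1.19, SE 0.31), the gene of the protease that activates granzymes. They were lower for Lamp1 (-1.05, SE 0.24) and Serpinb6b (-0.64, SE 0.20). Zeb2 had 0 and 73.7 CPM in CD8 or γδ T cells, so its level there rests on replicate 2. The ILC1/NK-gated class, in a contrast with 2.87% of all genes called, was higher than CD8 or γδ T cells for Lyst (2.42, SE 0.66), a gene of granule trafficking, and Serpinb6b (1.29, SE 0.23), and higher than NCR ILC3s only for Tbx21, which is a gate gene and no result. The remaining granzymes were close to absent, with Gzme at 2 and 4 UMIs in NCR ILC3s, where Gzmd had 0. Srgn, the proteoglycan gene of the granule matrix, was high in every lymphocyte class of the fit, between 2941 and 4345 CPM.

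Across 9 classes, the genes with patterns most like those of the granzymes were ranked by Pearson correlation of log2(CPM + 10) among 5294 genes, with the lower of both replicates' r. For Gzma they were Rb1cc1 (0.943), Itga1 (0.932), Lck (0.928), Nkg7 (0.925) and Card6 (0.924). For Gzmb they were Lck (0.941), Pitpnc1 (0.930), Fyn (0.928), Trbc1 (0.910) and Gimap7 (0.909). For Gzmc they were Zbtb16 (0.885), Ikzf2 (0.882), Slc16a10 (0.854), Txk (0.850) and Xcl1 (0.838). Itga1 encodes an integrin of tissue-resident lymphocytes, Lck and Fyn encode kinases of T cell receptor signalling, and Zbtb16 encodes PLZF, a factor of innate-like lymphocytes. The classes share captures and differ in depth, and 9 points of this kind describe the pattern without a test.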

How the data were processed

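The deposited tables hold counts of molecules (UMIs) per cell and gene, not normalised, made per the file headers with the BD WTA Multiplex Rhapsody pipeline, version 1.8. Sample tag calls, per the file headers, come from the same pipeline and are names, not numbers. HISAT2 2.0.5 and Bowtie2 also stand in the submitters' processing notes, which give them no role. Cells with the 2 tags were used, and 3 other tags of each capture, multiplet and undetermined calls were not. Kept cells had at least 300 genes and at most 25% mitochondrial UMIs and were not called by Scrublet (scanpy 1.11.5). Gates used at least 5 UMIs for non-lymphocytes and 2 for T cells, and cells that passed several were left out. One gene of the ILC3 gate is not reported here. Counts were summed per class and replicate where both held at least 10 cells, which gave 14 sums of 7 classes, and fitted with edgeR 4.0.16 (R 4.3.3; TMM, filterByExpr, quasi-likelihood, two-sided). Replicate was a block, because all classes of a replicate come from 1 tagged sample. The fit had 6 residual and 33.3 prior degrees of freedom. SE is the absolute log2 fold change over the square root of F. CPM divides by all UMIs of the class. The fit was tested on simulated data. The 8 genes, pathway list, gates and rule for named genes (all 8, called list genes, and the 5 closest patterns) were chosen with earlier results of these data known. DESeq2 1.42.0 and other gates were alternatives. Python 3.11.15 ran scipy 1.17.1, and numpy 2.4.6, matplotlib 3.10.9 and pandas 2.3.3 made the tables and plots. Intervals and limits cover counting error only.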

Additional observations from a re-analysis of the deposited data

Results flagged for a closer look

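Granzyme transcripts were also present in cells that the class comparisons leave out. Cells left out as mixed lineage, which passed more than 1 lineage gate, held 3191 UMIs of Gzma, Gzmb, Gzmc and Gzmk. T cells left out for having Cd4 together with Cd8a, Cd8b1 or Trdc held 1654 UMIs of these genes. Cells that passed no gate held 2754 UMIs. These are signals in data that the comparisons do not use. The mixed lineage cells numbered 533 and 206 and were deep, with medians of 9494 and 7402.5 UMIs, and how far doublets or the absolute gate of 5 UMIs put them there was not tested.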

How the results depend on the processing

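The number of the 8 genes called changed by over 1.5 times in 3 contrasts. For NCR ILC3s over ILC3s with neither gate gene (5), it was 2 with DESeq2, 1 without the replicate block, 2 with all gated classes in the fit, 3 with subset gates at 2 UMIs and 3 with non-lymphocyte gates by share of UMIs. For ILC1/NK-gated cells over NCR ILC3s (2), it was 1 with DESeq2, 0 without the replicate block, 0 with all gated classes in the fit, 1 with subset gates at 2 UMIs, 0 with gates by share of UMIs and 1 without the cell richest in granzyme UMIs of each class. In the 3 edgeR fits that called 0, 3, 2 and 2 genes had an unadjusted p under 0.05. For ILC1/NK-gated cells over CD8 or γδ T cells (4), it was 2 without the replicate block. Gates by share and the richest-cell alternative were chosen after seeing the data. Of the other 91 counts, all stayed within 1.5 times. The Gzmc difference of CD8 or γδ T cells over NCR ILC3s reversed to -2.14 in cells thinned to 1000 UMIs and gated again. Of the fold changes under alternatives, 831 kept direction and, where a test was run, side of the threshold. Of the rest, 49 no longer passed, 5 came to pass, and 27 values with no call in either setting changed sign or went to 0. The 831 and the 27 include values from single replicates, which have no test and were compared by direction alone. Of 332 granzyme shares under alternatives, 265 stayed within their counting interval. Causes were not tested. Not run, because a class fell under 10 cells, were thinning with new gates for NCR over CCR6 ILC3s and both ILC1/NK-gated contrasts, subset gates at 2 UMIs for NCR over CCR6 ILC3s, non-lymphocyte gates at 3 UMIs and removal of cells with other T cell transcripts for the ILC1/NK-gated contrasts, and CD8 cells without Trdc for the CD8 or γδ contrasts. Single replicates give values but no test, since 1 sum per class leaves no spread. Precision is limited by 2 replicates that cannot be told apart from the captures, by small classes (12 and 33 ILC1/NK-gated cells) and by few UMIs of Prf1.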

Other observations

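In 5 and 6 cells passing an ILC2 gate, too few for a test, Gzma stood at 477 and 2513 CPM, and Gzmb at 0 and 2693 CPM. In replicate 2 a single cell held all 28 Gzma UMIs, and a single cell held 28 of the 30 Gzmb UMIs. Stromal-gated cells held Gzma at 44.2 and 68.7 CPM, Nkg7 at 29.6 and 69.5 CPM and Serpinb9 at 124 and 181 CPM. Their 1 richest cell held 28.8% and 45.7% of the Gzma UMIs. Igha, the transcript of secreted IgA from plasma cells, stood at 1242 and 116 CPM in NCR ILC3s.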
